A study of Arabidopsis thaliana with 96 samples.

Results

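The mitochondrial genome of Arabidopsis thaliana was represented in the count table by 152 loci whose names begin with ATMG, and the 29 of them with a summed count of at least 480 over the 96 libraries (a mean of 5 counts per library) are described here, out of 32833 loci in all. The 29 loci were chosen on their summed counts alone, and they held 99.8% of the 2273432 mitochondrial counts. Every library came from leaf punches of 1 plant of the accession Col-0, with no transgene or mutation named, taken 30 days after transplanting to clay pots under 8 h of light and 16 h of dark. The plants stood in low, mid or high light (100, 250 or 500 µmol m-2 s-1) and received nutrient solution with 2, 5, 10 or 20 mM nitrate, which gave 12 groups of 8 plants. By its title the series is about nitrogen use and photosynthesis, and its 3 by 4 layout lets the effects of light, of nitrate and of their combination be separated.

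Plant mitochondria keep a small genome of their own that encodes part of the respiratory chain (subunits of complexes I, III and IV and of the ATP synthase), proteins for cytochrome c maturation, some ribosomal proteins and the mitochondrial ribosomal RNAs, while the nucleus encodes the other subunits, the RNA polymerases and the factors that edit, splice and trim the organelle's transcripts. In plant mitochondria a poly(A) tail is usually short and marks an RNA for degradation. The libraries were made with an mRNA kit, which captures poly(A) tails, so a count here measures the mitochondrial RNA that this capture carried along and not the steady amount of the transcript. In bulk leaf tissue fewer cells of a type and less RNA per cell cannot be told apart.

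A large copy of the mitochondrial genome also lies in chromosome 2 of the nucleus, and reads from the shared stretches fit both places. In RefSeq assembly TAIR10.1, 70.6% of the 50-base windows of the 367808-base mitochondrial genome occurred exactly in a nuclear chromosome, and 70.4% occurred on chromosome 2. Of 35 RefSeq mitochondrial genes (32 protein coding, 3 for ribosomal RNA), 15 had every window of their coding bases in the nucleus, among them cob (apocytochrome b of complex III), cox3 (a cytochrome oxidase subunit of complex IV), atp1 (the alpha subunit of the ATP synthase) and nad4 and nad6 (subunits of complex I). At the other end 7 genes had no window there, namely cox1 (the catalytic subunit of cytochrome oxidase), atp4 (an ATP synthase subunit), nad4L and nad9 (subunits of complex I), ccmB (cytochrome c maturation), rrn26 and rrn5 (ribosomal RNAs). Between them stood rrn18 with 0.371% of its windows, rps3 (a ribosomal protein) with 7.44% and cox2 (a cytochrome oxidase subunit) with 18.5%, and the remaining genes lay between 34.6% for rpl16 and 96.5% for mttB. The opening coding bases of 3 genes show the contrast, in lower case because no base differed where both places held the sequence. For atp4 the words mitochondrion only mean that no exact 50-base window was found in the nuclear chromosomes of this assembly. A copy with mismatches, or one missing from the assembly, would not have been seen. The stretch of cob at mitochondrial bases 182799 to 182858 (minus strand) was found letter for letter at chr2:3450863-3450922, and that of atp1 at bases 68562 to 68621 (minus strand) at chr2:3362505-3362564, in both cases with 0 mismatches, whereas that of atp4 at bases 362206 to 362265 (plus strand) shared no window with chromosome 2.
cob, mitochondrion and chromosome 2: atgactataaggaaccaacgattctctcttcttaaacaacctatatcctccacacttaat
atp1, mitochondrion and chromosome 2: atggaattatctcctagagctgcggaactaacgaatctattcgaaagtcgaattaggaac
atp4, mitochondrion only: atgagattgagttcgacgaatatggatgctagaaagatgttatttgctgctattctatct

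Loci with an annotated nuclear duplicate held few counts. RefSeq notes name a best-matching mitochondrial locus for 46 nuclear loci of chromosome 2, which pair with 45 of the 152 mitochondrial loci. Of these 45 loci, 2 reached the count threshold, the median summed count was 1, and 20 had no count in any library. Of the 107 mitochondrial loci for which no such note was found, 27 reached it, the median was 9, and 47 had no count. Of the 46 pairs 22 had more counts on the nuclear locus, 14 had more on the mitochondrial locus and 10 had none on either. Respiratory genes were found on both sides. On the nuclear side, ATMG00220 (apocytochrome b) had 1 count over 96 libraries against 285 for its chromosome 2 counterpart AT2G07727, ATMG00730 (cytochrome c oxidase subunit 3) had 1 against 562 for AT2G07687, and ATMG01190 (ATP synthase subunit 1) had 0 against 1953 for AT2G07698. On the mitochondrial side lay ATMG01090, described as ATP synthase subunit 9, with 1433 counts against 2 for AT2G07777, ATMG01320 (NADH dehydrogenase 2B) with 205 against 0 for AT2G07689, and ATMG01275 (NADH dehydrogenase 1A) with 22 against 0 for AT2G07785. Another pair described as subunit 9, ATMG01080 with AT2G07671, had 0 counts against 1. ATMG01080, and not ATMG01090, is the atp9 locus in the gene lists drawn up for this report. Of the 122 nuclear loci from AT2G07620 to AT2G07840, around the insertion, the most abundant were AT2G07680 at 20.6 ± 6.09 CPM and AT2G07690 at 8.61 ± 4.25, for which no mitochondrial counterpart is noted, and then AT2G07698 at 1.56 ± 0.618 CPM (counts per 1000000 total counts; SD, n = 96). How the authors treated reads that fit several places is not given in the sources used here, so a low count of a duplicated locus cannot be read as a low transcript. ATMG01090 and ATMG01220 (an unknown protein, 481 counts against 247 for AT2G07798) were the 2 members with such a counterpart. A member without such a note can still share sequence with the nucleus. By the same gene lists ATMG00510 is nad7 and ATMG00520 matR, with 94.7% and 94.8% of their windows there. ATMG00060, ATMG00513 and ATMG00665 are parts of nad5 (72.4% over the gene), and ATMG00516 and ATMG01120 are parts of nad1 (75.2%). ATMG01170 is listed as an atp6 gene, and atp6 as a whole has 86.3% of its windows there. How far their counts depend on this was not tested. RefSeq pairs no name with the other 27 members, so members are given below by locus. The gene lists place ATMG01390, ATMG00020 and ATMG01380 as the ribosomal RNA genes rrn18, rrn26 and rrn5. ATMG00640 is listed as atp4, ATMG00090 as rps3, ATMG00080 as rpl16, ATMG00070 as nad9, ATMG00160 as cox2 and ATMG01360 as cox1. These listed names could not be checked against RefSeq.

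**Figure D1:**
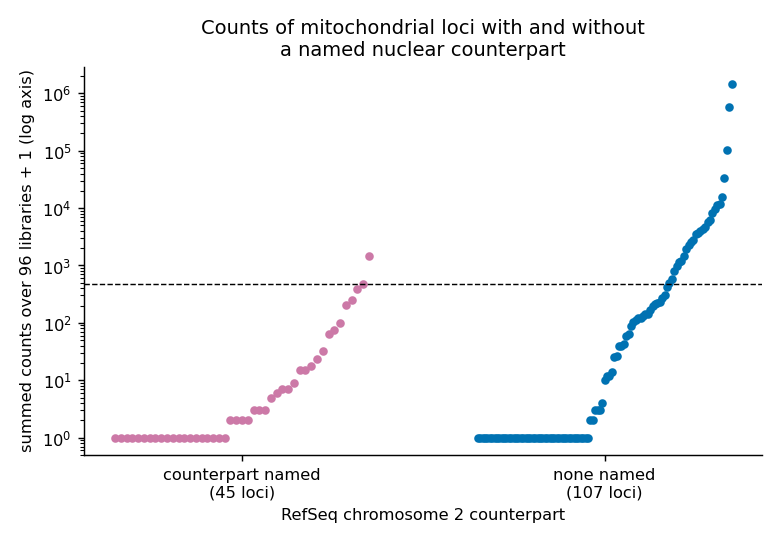
Summed counts over 96 libraries (plus 1, log axis) of the 45 mitochondrial loci with a chromosome 2 counterpart named in RefSeq notes and of the 107 without one, 1 point per locus in rising order, with the count threshold as a dashed line. The 2 points on or above the line on the left are ATMG01090 and, touching it, ATMG01220, and 27 points lie above it on the right.

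The mitochondrial counts were dominated by very few loci. ATMG01390 took a mean of 62.9% of the mitochondrial counts of a library (lowest 52.8%, highest 76.7%), at 1170 ± 412 CPM (SD, n = 96). ATMG00020 followed with 26.5% (9.87% to 41.1%) and 479 ± 160 CPM. The ranges of these 2 shares did not overlap over the 96 libraries. ATMG00640 was the next with 4.26% (1.56% to 10.0%) and 83.6 ± 67.6 CPM. Then came ATMG00090 with 1.43% (0.915% to 3.00%), ATMG00080 with 0.683% (0.448% to 1.03%) and ATMG00070 with 0.536% (0.258% to 0.918%). From ATMG00020 downward the ranges of neighbouring loci overlapped over libraries. The remaining 23 members had mean shares between 0.507% for ATMG00660 and 0.0221% for ATMG00665. Counts were not divided by length, so a share is one of reads and not of molecules. RefSeq annotates 1935 bases for rrn18, 3169 for rrn26 and 579 for atp4, the genes listed for ATMG01390, ATMG00020 and ATMG00640.

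**Figure D2:**
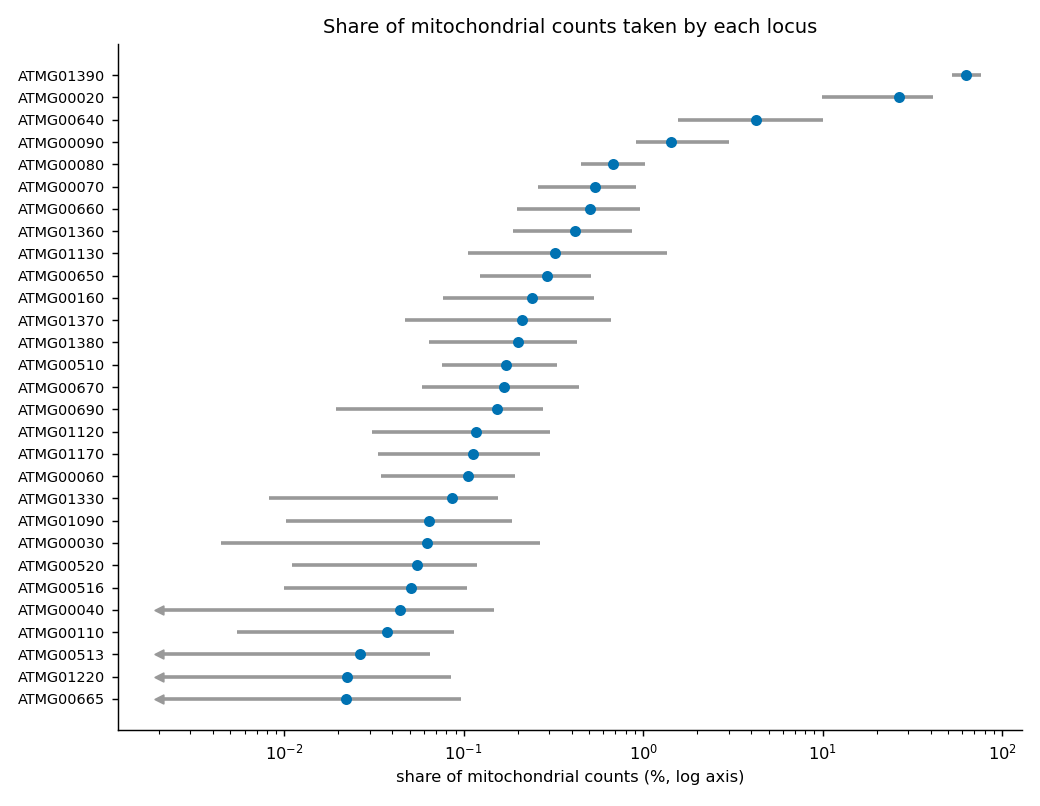
Share of the mitochondrial counts of a library taken by each of the 29 loci (percent, log axis), with the mean over 96 libraries as a point and the lowest to highest library as a bar; an arrowhead marks loci with a library at 0. The bar of ATMG01390 (mean 62.9%) lies above all others, that of ATMG00020 (26.5%) just overlaps that of ATMG00640, and the means end at 0.0221%.

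Members differed in how much they varied between libraries. The coefficient of variation of CPM over the 96 libraries was lowest for ATMG00070 (23.8%) and ATMG00650 (24.9%) and highest for ATMG01130 (112%), ATMG00030 (89.4%) and ATMG00640 (80.8%), while the 2 most abundant loci stood at 35.3% (ATMG01390) and 33.4% (ATMG00020). ATMG01130 ran from 1.2 to 49.4 CPM with a median of 4.39, and ATMG00070 from 5.72 to 14.8 with a median of 9.25. At the bottom of the set ATMG00040, ATMG00513, ATMG01220 and ATMG00665 each had 2 libraries without a count. The members just inside the threshold were ATMG01220 with 481 summed counts and ATMG00665 with 488, and the loci just outside were ATMG01350 with 420 and ATMG00560 with 387. ATMG01220 was the 1 member that failed the low-count filter of the tests below, which 28 members passed.

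Total counts per library ranged from 9.46 to 18.1 × 1000000 (median 12.5) and mitochondrial counts from 12732 to 48948 (median 22150), so the counting error of the total mitochondrial share is small beside the spread between plants. The leaf label was checked against marker genes. The 5 mesophyll markers summed to group means of 16800 to 50600 CPM, whereas the 3 flower markers summed to 0.107 to 0.254 CPM, and of the 4 root markers MYB36 had no count in any library, CASP1 had none in 67 and CASP2 none in 93, while SCR was read in every library at a mean of 26.9 CPM. The library codes run through 4 consecutive sets of 24 with 2 libraries of each group in each set. The labels do not say whether a set was a batch. These code sets stood apart for the mitochondrial counts, with mean shares of total counts of 0.219% ± 0.0770, 0.162% ± 0.0388, 0.159% ± 0.0329 and 0.199% ± 0.0489 (SD, n = 24 each) in sets 1 to 4, and the results that change without a set are given with and without it.

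The mitochondrial share of all counts was lower at 20 than at 2 mM nitrate and did not pass the test between light levels. It was 0.222% ± 0.0715 at 2 mM (lowest 0.135%, median 0.207%, highest 0.369%), 0.196% ± 0.0563 at 5 mM, 0.150% ± 0.0342 at 10 mM and 0.172% ± 0.0333 at 20 mM (0.111%, 0.170% and 0.242%; SD, n = 24 per dose). The doses overlapped. The difference of 20 minus 2 mM was -0.0491 percentage points and passed a two-sided permutation test (100000 resamples, adjusted p = 0.00592 over 2 comparisons). High light stood at 0.183% ± 0.0404 and low light at 0.177% ± 0.0649 (SD, n = 32), a difference of 0.0068 percentage points that did not pass the same test (adjusted p = 0.619). By group, the share was highest in mid light at 2 mM (0.241% ± 0.0743; lowest 0.146%, median 0.215%, highest 0.369%), followed by low light at 2 mM (0.215% ± 0.0934; 0.135%, 0.179% and 0.365%), mid light at 5 mM (0.215% ± 0.0634; 0.135%, 0.189% and 0.308%) and high light at 2 mM (0.208% ± 0.0431; 0.155%, 0.205% and 0.267%). It was lowest at 10 mM in low light (0.133% ± 0.0169; 0.115%, 0.127% and 0.168%) and in mid light (0.146% ± 0.0299; 0.110%, 0.156% and 0.178%). In the middle lay low light at 5 mM (0.188% ± 0.0663) and 20 mM (0.170% ± 0.0337), mid light at 20 mM (0.174% ± 0.0365) and high light at 5, 10 and 20 mM (0.184% ± 0.0366, 0.170% ± 0.0431 and 0.173% ± 0.0343). Neighbours in this order differed by less than their SD.

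**Figure D3:**
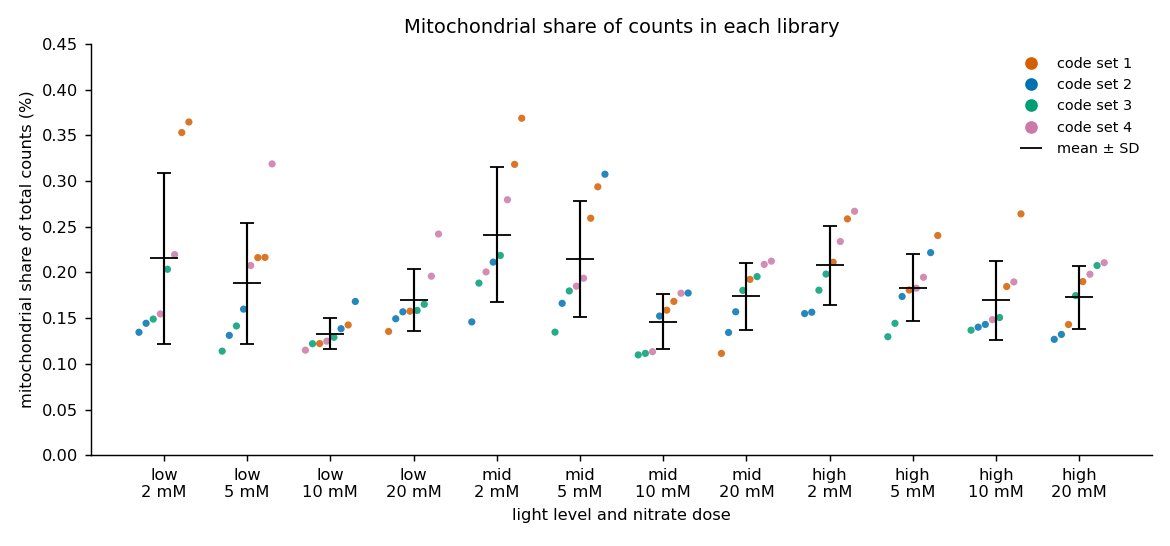
Mitochondrial share of total counts (percent) in each of the 96 libraries, by light level and nitrate dose, with points coloured by code set and black bars for the mean ± SD of 8 plants. The 3 libraries above 0.35% all belong to code set 1 at 2 mM, and the lowest groups are low and mid light at 10 mM.

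Most of the nitrate difference in the total share came with the libraries of code set 1. Within that set the share fell from 0.312% ± 0.0644 at 2 mM to 0.155% ± 0.0318 at 20 mM (SD, n = 6; exact two-sided permutation test, adjusted p = 0.00433), and 6 of 6 libraries at 2 mM lay above 6 of 6 at 20 mM. In sets 2, 3 and 4 the means were 0.158% against 0.143%, 0.190% against 0.180%, and 0.226% against 0.211%, in the same direction but without passing the exact permutation test (adjusted p = 0.55, 0.455 and 0.832). Without code set 1 the difference was -0.013 percentage points (permutation test, adjusted p = 0.395). The 3 loci listed as ribosomal RNA genes, ATMG01390, ATMG00020 and ATMG01380, held 89.3% of the mitochondrial counts. They were set apart by that listing and not by abundance, as ATMG01380 took a mean of 0.2% and ATMG00640 4.26%. The share of all other loci fell from 0.0271% ± 0.0166 at 2 mM to 0.0145% ± 0.00299 at 20 mM (SD, n = 24; permutation test, adjusted p = 8e-05). That remainder was 0.0324% ± 0.0154 in code set 1 and between 0.0139% and 0.0166% in the other sets. Its mean was lower at 20 than at 2 mM in each of the 4 sets, at 0.0178% against 0.0509% in set 1, 0.0131% against 0.0197% in set 2, 0.0117% against 0.0174% in set 3 and 0.0154% against 0.0205% in set 4. Other values moved with the dose as well. AT3G41768, a nuclear ribosomal RNA locus per RefSeq that a poly(A) capture should largely leave behind, stood at 1780 ± 721 CPM at 2 mM and 2920 ± 978 at 20 mM, and at 2530 ± 907 in low and 1590 ± 789 in high light, with set means of 1920, 1920, 1750 and 2840 CPM. The chloroplast share of counts was 2.52% ± 0.929 at 2 mM and 3.59% ± 0.681 at 20 mM. Marker sums moved too. The mesophyll sum had group means of 18100 to 37100 CPM at 2 mM and 42800 to 50600 at 20 mM, and the phloem sum 279 to 307 at 2 mM and 208 to 220 at 20 mM. The epidermis sum had group means of 229 to 255 CPM in low light and 67.7 to 91.8 in high light. The part of RNA selection and of these cell types in the mitochondrial differences was not tested.

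**Figure D4:**
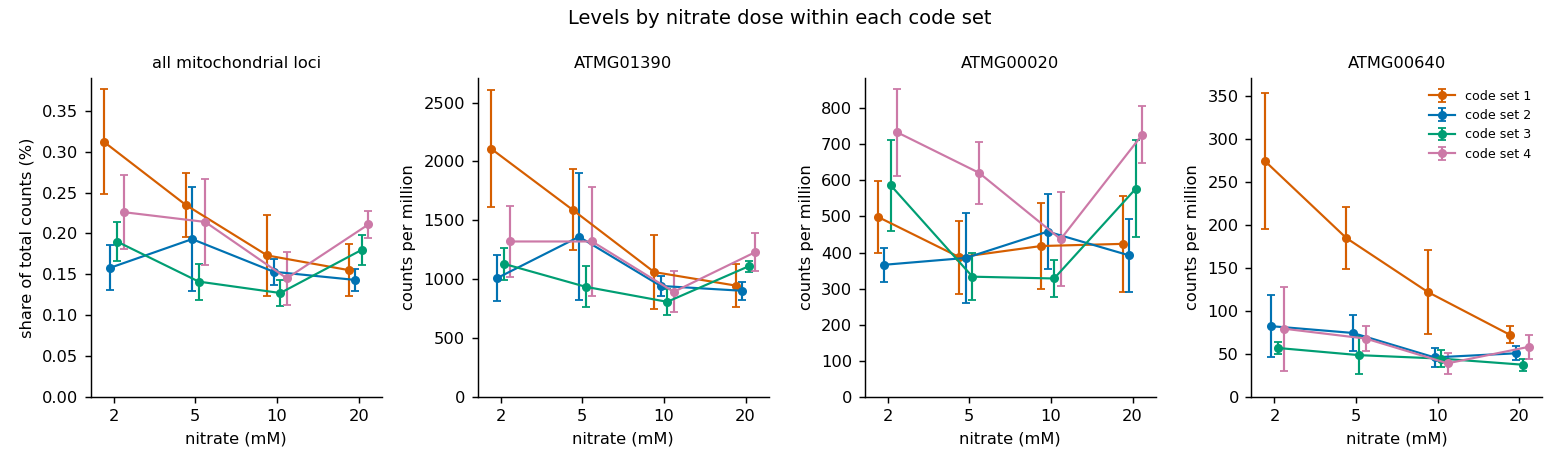
Mean ± SD (n = 6 libraries) by nitrate dose within each code set, for the mitochondrial share of total counts (percent) and for the CPM of ATMG01390, ATMG00020 and ATMG00640. Code set 1 is high at 2 mM for the total share (0.312%), ATMG01390 (2110 CPM) and ATMG00640 (275 CPM), while ATMG00020 is highest in code set 4.

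The ratio of the 2 leading loci varied between libraries and is described here without a test. The share of ATMG01390 by group lay between 60.2% ± 2.63 (mid light, 20 mM) and 66.6% ± 4.32 (low light, 5 mM), and that of ATMG00020 between 21.5% ± 7.02 (high light, 5 mM) and 31% ± 4.65 (mid light, 20 mM; SD, n = 8). The counts of ATMG00020 per count of ATMG01390 averaged 0.426 ± 0.156 at 2 mM, 0.356 ± 0.136 at 5 mM, 0.444 ± 0.0778 at 10 mM and 0.499 ± 0.116 at 20 mM (SD, n = 24). The mean was lowest at 5 mM and highest at 20 mM in 3 of 3 light levels, with 0.346, 0.380 and 0.341 at 5 mM in low, mid and high light and 0.459, 0.519 and 0.520 at 20 mM, although the libraries of all doses overlapped. It also differed by code set, with means of 0.336, 0.399, 0.452 and 0.539 in sets 1 to 4. In set 1 it was 0.249 ± 0.0769 at 2 mM and 0.441 ± 0.0656 at 20 mM with no overlap, and in set 4 it was 0.572 ± 0.122 and 0.601 ± 0.114 (SD, n = 6).

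The shares of the next 4 loci by abundance are likewise given as a description. ATMG00640 lay between 3.23% ± 1.01 (high light, 20 mM) and 5.72% ± 3.09 (mid light, 2 mM), ATMG00090 between 1.19% ± 0.237 (mid light, 20 mM) and 1.75% ± 0.643 (low light, 2 mM), and ATMG00080 between 0.570% ± 0.0871 (high light, 20 mM) and 0.772% ± 0.128 (high light, 5 mM; SD, n = 8). For ATMG00640 and ATMG00090 the lowest group was at 20 mM and the highest at 2 mM. ATMG00070 ran from 0.444% ± 0.112 (mid light, 20 mM) to 0.616% ± 0.124 (low light, 10 mM). The libraries of the lowest and highest group overlapped for each of these 4 loci. Relative to the counts left without ATMG01390, ATMG00020 and ATMG01380, ATMG00640 alone took 34.6% to 44.3% by group.

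Nitrate went with a lower level of many members when each was tested on its own. In the edgeR quasi-likelihood fit over all loci, with TMM scaling and Benjamini-Hochberg adjustment, 14 of the 28 tested members differed between 20 and 2 mM (adjusted p under 0.05), of which 12 were lower and 2 higher at 20 mM. In the same comparison 63.3% of all tested loci were called (34.6% lower and 28.7% higher), so a call in this comparison is no mark of a mitochondrial locus. The median log2 change of the members was -0.29 beside -0.06 over all tested loci. Without code set 1 the median of the 27 members then tested was -0.157 beside -0.026 over all loci. In that fit 1 member was higher and 6 lower, where 61.5% of all loci were called. With all libraries, scaling to plain total counts moved the median of all loci to -0.37 and that of the members to -0.59, and the split of calls to 0 higher and 20 lower. Under that scaling 73.6% of all 19498 tested loci were called, 3081 higher and 11261 lower.

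The largest decrease was that of ATMG01130. Its TMM-scaled CPM ran from 1.78 to 38 (median 4.79) over the 24 libraries at 2 mM and from 1.57 to 7.85 (median 4.40) at 20 mM. The medians were close, and the highest libraries belonged to code set 1, where plain CPM averaged 27.8 ± 13.9 at 2 mM and 4.64 ± 1.88 at 20 mM (SD, n = 6). The log2 change was -1.06 ± 0.27 (SE, edgeR adjusted p = 0.000528). Leaving out code set 1 gave -0.23, which was not called (adjusted p = 0.312). ATMG00640 also had close medians and a few high libraries at 2 mM, with 38.7 to 296 (median 62.3) at 2 mM and 34 to 96.4 (median 58.5) at 20 mM. Its log2 change was -0.79 ± 0.23 (SE, edgeR adjusted p = 0.00174). Leaving out code set 1 gave -0.25, which did not pass (adjusted p = 0.105). In code set 1 it averaged 275 ± 79.6 CPM at 2 mM and 72.4 ± 10.2 at 20 mM, against 56.9 ± 6.69 and 37.4 ± 6.99 in set 3 (SD, n = 6).

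ATMG00160 and ATMG00690 were lower at 20 mM with and without that code set. ATMG00160 ran from 1.87 to 11.9 TMM-scaled CPM (median 4.73) at 2 mM and from 1.83 to 5.92 (median 3.25) at 20 mM. The mean was higher at 2 mM in each of the 4 sets, with plain CPM of 12.5 against 4.40 in set 1, 5.12 against 3.22 in set 2, 4.45 against 2.24 in set 3 and 4.80 against 2.72 in set 4. The log2 change was -0.74 ± 0.18 (SE, edgeR adjusted p = 0.00038). Leaving code set 1 out gave -0.45 at an adjusted p of 0.00197, and the libraries of the doses overlapped. ATMG00690 ran from 1.00 to 9.02 (median 3.03) at 2 mM and from 0.419 to 3.41 (median 2.04) at 20 mM. The log2 change was -0.66 ± 0.18 (SE, edgeR adjusted p = 0.000963), and it was -0.53 without code set 1 at an adjusted p of 0.00436. ATMG01360 and ATMG00660, with log2 changes of -0.44 and -0.38, also passed the test without code set 1, at -0.40 and -0.28, while ATMG00660 did not without code set 2 (edgeR adjusted p = 0.0604).

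The other 6 members with lower levels were ATMG00030 (log2 change -0.64), ATMG00090 (-0.50), ATMG01120 (-0.49), ATMG01330 (-0.39), ATMG00510 (-0.36) and ATMG00080 (-0.33). None of these 6 passed the edgeR test without code set 1, where their log2 changes lay between -0.33 for ATMG01330 and -0.07 for ATMG00510 and their adjusted p between 0.0759 and 0.699. Without code set 2 ATMG00030 (edgeR adjusted p = 0.132) and ATMG01330 (0.0795) also lost the call, and without code set 3 ATMG00510 (0.0573). The members that were higher at 20 mM were ATMG00060 and ATMG01380. ATMG00060 ran from 0.742 to 3.08 TMM-scaled CPM (median 1.59) at 2 mM and from 1.38 to 3.47 (median 2.26) at 20 mM, with a log2 change of 0.37 ± 0.14 (SE, edgeR adjusted p = 0.0182). ATMG01380 ran from 1.80 to 7.24 (median 2.75) at 2 mM and from 1.45 to 6.92 (median 3.64) at 20 mM, with a log2 change of 0.37 ± 0.15 (SE, adjusted p = 0.0264). Both lost the call under scaling to total counts, at 0.08 (edgeR adjusted p = 0.605) and 0.07 (adjusted p = 0.692). ATMG00060 also lost it without code set 1 (0.19, adjusted p = 0.32) or 2 (adjusted p = 0.0858), and ATMG01380 without code set 2 (0.22, adjusted p = 0.289) or 3 (adjusted p = 0.059). The 2 most abundant loci were not called. ATMG01390 stood at 1230 ± 434 at 2 mM and 1150 ± 196 at 20 mM, and ATMG00020 at 489 ± 159 and 585 ± 192 (TMM-scaled CPM; SD, n = 24), with log2 changes of -0.09 (adjusted p = 0.476) and 0.26 (adjusted p = 0.0882).

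**Figure D5:**
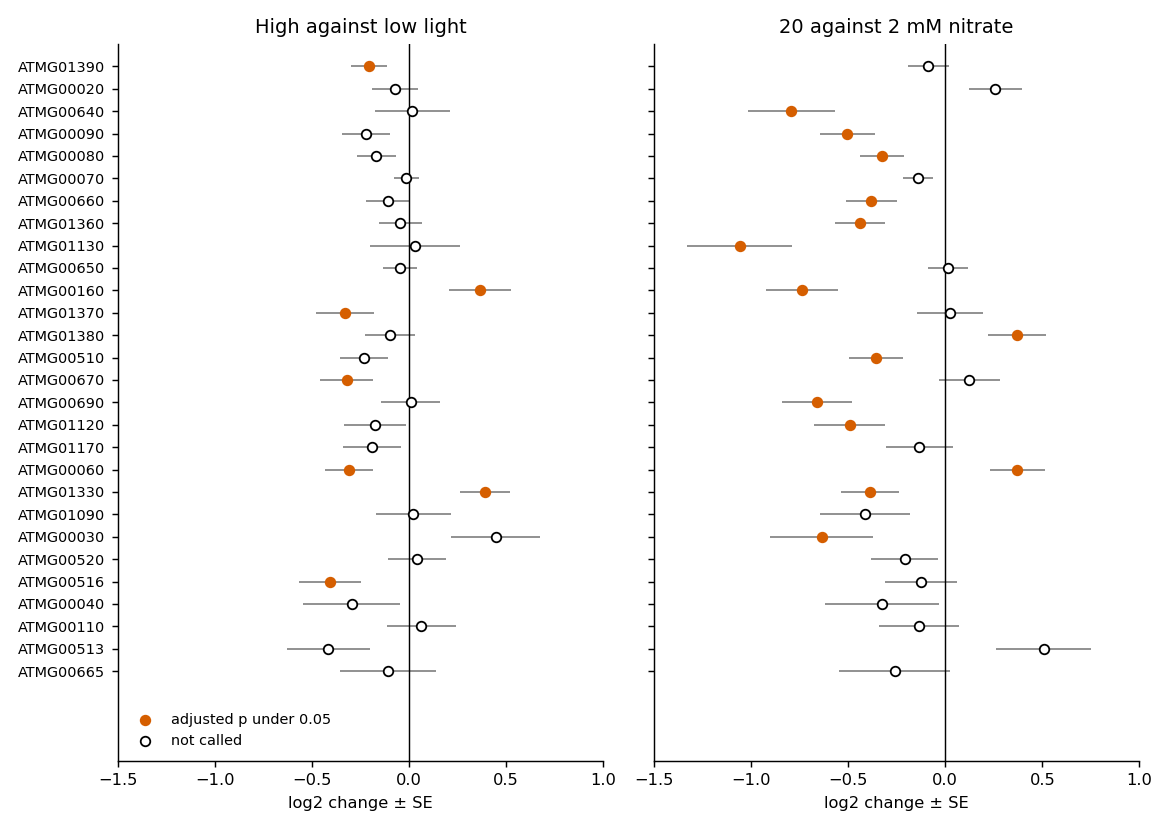
Log2 change ± SE of the 28 tested members from the edgeR fit, in order of abundance from the top, for high against low light (left) and 20 against 2 mM nitrate (right), with filled points at an adjusted p under 0.05. On the nitrate side 12 of the 14 filled points lie to the left of 0, and on the light side 5 of 7.

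Light went with small changes in either direction. Between high and low light 7 of 28 members were called, 2 higher and 5 lower, where 62.5% of all tested loci were called, 33.8% higher and 28.7% lower. The median log2 change of the members was -0.10 beside 0.04 over all loci. Without code set 1 the median of the 27 members then tested was 0.052 beside 0.035 over all loci. In that fit 3 members were higher and 2 lower, where 67.5% of all loci were called. With all libraries, scaling to total counts moved the medians of members and of all loci to 0.13 and 0.27 and the calls to 4 higher and 0 lower. Under that scaling 71.5% of all 19498 tested loci were called, 10827 higher and 3106 lower. The lower calls in high light thus hold relative to the bulk of loci. As a share of all counts no member was called lower. ATMG01330 was higher in high light. It ran from 0.273 to 3.10 TMM-scaled CPM (median 1.36) in low light and from 1.09 to 2.56 (median 1.78) in high light, with a log2 change of 0.39 ± 0.13 (SE, edgeR adjusted p = 0.00625). ATMG00160 ran from 1.64 to 11.9 (median 2.99) in low light and from 2.13 to 10.8 (median 4.31) in high light, with a log2 change of 0.36 ± 0.16 (SE, edgeR adjusted p = 0.0405). This call was lost without code set 2, 3 or 4 (edgeR adjusted p = 0.18, 0.111 and 0.192), while without code set 1 the log2 change was 0.54 (adjusted p = 2.77e-05).

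The 5 members that were lower in high light changed by small amounts. ATMG00516 ran from 0.358 to 2.29 TMM-scaled CPM (median 1.03) in low light and from 0.184 to 1.33 (median 0.842) in high light, with a log2 change of -0.41 ± 0.16 (SE, edgeR adjusted p = 0.0219). ATMG01370 had medians of 3.81 and 3.6 and a log2 change of -0.33 ± 0.15 (SE, adjusted p = 0.0448), but without code set 1 the change was 0.05 (adjusted p = 0.736). ATMG00670 had medians of 3.12 and 2.67 with a log2 change of -0.32 ± 0.14 (SE, edgeR adjusted p = 0.0358), and ATMG00060 had medians of 1.96 and 1.53 with -0.31 ± 0.12 (SE, edgeR adjusted p = 0.0235). The most abundant locus, ATMG01390, ran from 802 to 2680 (median 1060) in low light and from 777 to 1420 (median 1020) in high light, with a log2 change of -0.21 ± 0.09 (SE, edgeR adjusted p = 0.0452). Its plain CPM averaged 1140 at both light levels, and under scaling to total counts the change was 0.02 (edgeR adjusted p = 0.868). ATMG01390 lost the call when any 1 code set was left out, with adjusted p between 0.0511 and 0.153. Without code set 2 no member was called lower by edgeR (2 were higher, and 6 had an unadjusted p under 0.05), and without code set 1 ATMG00516 (adjusted p = 0.0731) and ATMG00670 (0.428) lost the call as well. Libraries of both light levels overlapped for each of these loci.

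Mid light differed from low light in 1 member, which was lower, where 19.8% of all tested loci were called (9.57% lower). ATMG01370 ran from 1.91 to 10.2 TMM-scaled CPM (median 3.81) in low light and from 1.03 to 5.64 (median 2.92) in mid light, with a log2 change of -0.51 ± 0.15 (SE, edgeR adjusted p = 0.00927). The call was lost without code set 2 (log2 change -0.54, adjusted p = 0.0803).

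The nitrate change was also compared between high and low light. By edgeR 0 of 28 members were called for this difference, where 6.03% of all tested loci were called, and 3 members had an unadjusted p under 0.05, as 4 did by DESeq2 and 3 by limma-voom, which called 0 as well. The median difference of the members was 0.38 on the log2 scale beside 0.01 over all loci, and without code set 1 it was -0.003. The smallest p belonged to ATMG00660, with a difference of 0.76 ± 0.32 (SE, edgeR adjusted p = 0.139). The SE of this difference ran from 0.18 for ATMG00070 to 0.72 for ATMG00040 over the 28 members.

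The chloroplast genome is the other organelle genome read through the same capture. Of its 90 loci above the same count threshold, 84 were lower in high than in low light and 0 higher (77 and 0 under scaling to total counts), and 66 were higher at 20 than at 2 mM and 0 lower (55 and 5 under scaling to total counts), with median log2 changes of -0.86 and 0.72, against -0.10 and -0.29 for the mitochondrial members. Without code set 1 the chloroplast medians were -0.888 and 0.82, against 0.052 and -0.157 for the mitochondrial members. The chloroplast loci were also deeper, with a median mean level of 32.9 CPM against 3.07 for the tested mitochondrial members, and the difference between the sets was not tested.

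Nuclear genes for mitochondrial proteins were taken from lists chosen by function. Of 80 tested genes in 9 lists, 37 were higher and 14 lower in high light, and 37 were higher and 11 lower at 20 mM nitrate, by the same edgeR fit. Over all tested loci 33.8% were higher and 28.7% lower in high light, and 28.7% were higher and 34.6% lower at 20 mM, and the counts of each list stand beside these shares without a test of their difference. Scaling to total counts gave 62 higher and 1 lower for light and 6 higher and 45 lower for nitrate, so the directions below are again relative to the bulk of loci. Under that scaling, of all 19498 tested loci 10827 were higher and 3106 lower for light, and 3081 higher and 11261 lower for nitrate. The 3 organelle RNA polymerases were all higher in high light, also under scaling to total counts, and with nitrate 1 was higher and 0 lower (1 and 2 under scaling to total counts). Among them SCA3 (AT2G24120), which is known mainly as a chloroplast enzyme, stood at 49.7 against 38.7 mean TMM-scaled CPM in high and low light (log2 change 0.40 ± 0.10 SE, edgeR adjusted p = 0.000215) and at 54.6 against 36.3 at 20 and 2 mM (0.63 ± 0.11 SE, adjusted p = 9.84e-07). RNA editing and splicing factors had 7 higher and 0 lower of 12 in high light, with MORF3 (AT3G06790), an organelle RNA editing factor, at 0.44 ± 0.05 (SE, edgeR adjusted p = 2.98e-11), and 2 higher and 2 lower with nitrate (0 and 7 under scaling to total counts), with MORF1 (AT4G20020) at 0.53 ± 0.11 (SE, adjusted p = 2.69e-05; 0.21 and not called under that scaling). Genome maintenance genes had 5 higher and 1 lower of 8 in high light, led by the single-stranded DNA binding protein ATWHY2 (AT1G71260) at 0.51 ± 0.08 (SE, edgeR adjusted p = 2.37e-08), and 2 higher and 2 lower with nitrate (0 and 5 under scaling to total counts), where POLGAMMA1 (AT3G20540), an organelle DNA polymerase, changed by 0.39 ± 0.08 (SE, adjusted p = 2.03e-05; 0.08 and not called under that scaling). RNA decay and end processing genes had 2 higher and 2 lower of 10 in high light (4 and 0 under scaling to total counts), with the tRNA-trimming enzyme TRZ3 at 0.63 ± 0.11 (SE, edgeR adjusted p = 1.55e-06), and 5 higher and 1 lower with nitrate (2 and 2), with the ribonuclease gene EMB2730 (AT5G02250) at 0.48 ± 0.09 (SE, adjusted p = 3.61e-06).

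The nuclear subunits of the respiratory complexes are given by complex, with the calls under scaling to total counts in brackets where the split turns. As before, 62.5% of all tested loci were called for light and 63.3% for nitrate, a share that several of these lists come near. Under scaling to total counts these shares were 71.5% and 73.6%. ATP synthase subunits had 8 higher and 0 lower of 9 at 20 mM (2 and 3), with AT5G08690, of the alpha/beta family, at 279 against 186 mean TMM-scaled CPM (log2 change 0.59 ± 0.07 SE, edgeR adjusted p = 2.82e-10), and 1 higher and 3 lower in high light (6 and 1), with AT5G47030, of the delta/epsilon type, at 129 against 168 (-0.40 ± 0.06 SE, adjusted p = 1.99e-09). Complex I subunits had 9 higher and 1 lower of 13 at 20 mM (1 and 5), with GAMMA CA2, a carbonic anhydrase-like subunit, at 114 against 85.7 (0.42 ± 0.05 SE, edgeR adjusted p = 1.26e-10), and 3 higher and 5 lower in high light (8 and 0), where AT1G16700, an alpha-helical ferredoxin by its RefSeq description, was higher at 0.16 ± 0.04 (SE, adjusted p = 0.000192). Complex IV subunits and assembly factors had 7 higher and 1 lower of 11 in high light and 5 higher and 2 lower at 20 mM (0 and 9). COX10 (AT2G44520), which acts in making the heme of cytochrome oxidase, was higher in high light (0.44 ± 0.05 SE, edgeR adjusted p = 7.26e-11) and lower at 20 mM (-0.29 ± 0.06 SE, adjusted p = 4.23e-05). Complex III subunits and cytochrome c had 6 higher and 1 lower of 9 in high light and 4 higher and 2 lower at 20 mM (0 and 7), with the electron carrier CYTC-2 at 41.5 against 22.5 in high and low light (0.88 ± 0.10 SE, edgeR adjusted p = 1.96e-12). Complex II, which has no member in the mitochondrial genome of this plant, had 3 higher and 1 lower of 5 in high light, with SDH1-1, its flavoprotein, at 0.43 ± 0.08 (SE, edgeR adjusted p = 1.09e-06), and 1 higher and 1 lower at 20 mM (0 and 5), where the membrane subunit SDH4 (AT2G46505) was higher at 0.18 ± 0.05 (SE, adjusted p = 0.000957) but at -0.12 under scaling to total counts.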

How the data were processed

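Counts per locus of 96 leaf libraries were used as the authors deposited them. A stranded mRNA kit was used, per the labels' protocols; reads were aligned with STAR 2.5.3a to TAIR10 and counted with featureCounts, per the submitters' processing notes. Strand and multi-mapping settings: not given in the sources used here. Loci passing filterByExpr (19498) were fitted in edgeR 4.0.16 (R 4.3.3) with 1 mean per group, TMM scaling and robust quasi-likelihood tests. A call is a Benjamini-Hochberg adjusted p under 0.05 over all tested loci, and the SE is the log2 change over the square root of F. Alternatives were other scalings, DESeq2 1.42.0, limma-voom 3.58.1, blocks, and each code set alone or left out. Exact 50-base matches were read from RefSeq TAIR10.1. Permutation tests of shares were added after the values were seen. Any member could be named; full values went to the 6 most abundant and to up to 4 called members per direction with the largest changes, and nuclear genes were those of smallest p per list. The chromosome 2 pairs printed were chosen after their counts were seen, apart from the 3 most abundant loci of that region. Members, lists and tests were chosen with earlier results of these data known. No 2 libraries of a group were copies (chi-square over degrees of freedom at least 6.46). The fit was tested on simulated data. P-values measure the spread between the plants sampled, whose growth batches are not stated.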

Additional observations from a re-analysis of the deposited data

Results flagged for a closer look

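Among 192 sets of 8 plants examined for a single value far from the others (the total share and 15 members in 12 groups), 12 were flagged. The cutoff flags about 1 in 20 sets of independent normal values, a condition not checked here, and each set of 8 mixed 4 code sets. The flagged values came from 10 libraries, and 9 of the 12 values came from 7 libraries of code set 1. In low light at 2 mM ATMG01130 stood at 49.4 CPM in replicate 2, with the others between 1.70 and 19.9, and ATMG01370 at 9.95 CPM in replicate 1, with the others between 2.64 and 5.18. In low light at 10 mM ATMG01370 reached 9.38 CPM in replicate 2 (others 2.03 to 5.22) and ATMG01390 reached 1030 CPM in replicate 4 (others 740 to 856). In low light at 20 mM ATMG00070 reached 12.3 CPM in replicate 1 (others 5.72 to 8.36) and ATMG00080 17.7 CPM in replicate 6 (others 8.14 to 11.9). In mid light at 20 mM ATMG01380 reached 6.39 CPM in replicate 4 (others 2.27 to 4.00). In high light at 5 mM replicate 1 was high for ATMG00090 at 50.2 CPM (others 17.3 to 30.4) and for ATMG01130 at 17.8 CPM (others 3.31 to 8.95), and replicate 2 was low for ATMG01370 at 1.53 CPM (others 3.33 to 4.74). In high light at 10 mM replicate 1 was high for the mitochondrial share of total counts at 0.264% (others 0.137% to 0.190%) and for ATMG01390 at 1640 CPM (others 869 to 1180).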

How the results depend on the processing

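The number of members called for high against low light (7) became 4 with limma-voom, 3 with the mitochondrial total as library size, 4 with total counts, 12, 3, 1 and 1 within code sets 1 to 4, and 2 without code set 2. For mid against low light (1) it became 2 with the replicate block, 2 with the code set block, 2 without code set 4, and 0 by edgeR without code set 2 and within sets 1, 3 and 4, where 2, 11, 1 and 0 members had an unadjusted p under 0.05. The shares of all tested loci called were 29.9%, 30.3%, 18.7%, 3.7%, 1.08%, 0.444% and 0.519% in that order. For 20 against 2 mM (14) the number of members called became 0, 4 and 0 within sets 2, 3 and 4 (7 members in set 2 and 0 in set 4 at an unadjusted p under 0.05 by edgeR), 7 without set 1 and 9 without set 2. Here 38.9%, 43.4%, 17.3%, 61.5% and 55.9% of all tested loci were called. The replicate numbers were not taken as pairs: same-numbered libraries of different groups had a median correlation of deviations of 0.236 (lowest -0.546) against -0.0225 for other numbers, a hint from the data that numbers share something, 29 of 96 libraries were closest to their own number, and with the replicate block the light and nitrate counts were 6 and 15. With that block 67.1% and 67.3% of all tested loci were called. The nitrate difference in the total share no longer passed the permutation test without code set 1 (-0.013) or within sets 2 (-0.0152), 3 (-0.00942) and 4 (-0.0145), and the light difference turned to -0.00444 within set 1. The sign of a log2 change turned for ATMG00670 within set 3 (0.091), ATMG01370 within sets 3 (0.001) and 4 (0.37) and without set 1 (0.052), and ATMG01390 with total counts (0.02) in the light comparison. In the nitrate comparison it turned for ATMG00030 within sets 3 (0.07) and 4 (0.54), ATMG00060 (-0.07), ATMG00080 (0.11), ATMG00090 (0.018) and ATMG01380 (-0.014) within set 4, and ATMG00510 within set 2 (0.088). Of the nuclear genes named, AT1G16700 turned in light within set 4 (-0.042) and SDH4 (AT2G46505) turned with nitrate under total counts (-0.12). Beyond these, the member values kept direction and call in 249 cases and lost the call in 113. Within a code set 2 libraries per group remain, so lost calls there go with fewer samples; other causes were not tested. Members under 1 CPM rest on few counts per library.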
